A study of Homo sapiens with 6 samples.

Results

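Expression of 10 genes that encode TGF-beta ligands, a TGF-beta feedback inhibitor and genes of mesenchymal transition was examined in erastin-treated ARPE-19 cells, an established human retinal pigment epithelium (RPE) line. The genes were taken by symbol from 33496 genes in each library, and all 10 (TGFB1, TGFB2, TGFBI, SMAD7, SNAI2, ZEB1, CDH2, ACTA2, TAGLN and FN1) had a row. The Era group holds 3 libraries of wild-type cells that received erastin at 5 μM for 24 h. Erastin inhibits the cystine/glutamate antiporter and is a standard inducer of ferroptosis. The Era+VK group holds 3 libraries of wild-type cells that received vitamin K1 (VK1, 10 μM) 1 h before the same erastin treatment. Both groups carry erastin, so each comparison asks what VK1 pretreatment changed under erastin, and cells without erastin were not analysed here. Every title names ARPE-19, whereas the cell line field counts upward from one library to the next. All libraries were taken as ARPE-19. Nothing in the labels says that replicates came from separate cultures, so p-values measure only the spread between these libraries.

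TGF-beta ligands are secreted in a latent form and, once activated, bind paired receptors that phosphorylate SMAD2 and SMAD3. SMAD complexes then switch on matrix and contractile genes as well as SMAD7, which shuts the receptor off. In RPE cells that leave their epithelial state, TGF-beta is a well-known inducer of mesenchymal transition, in which factors such as SNAI2 and ZEB1 repress epithelial genes while fibronectin, N-cadherin and smooth muscle proteins appear. TGF-beta 2 is regarded as the main TGF-beta of the posterior eye.

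Values are FPKM, which correct fragment numbers for transcript length and for the mapped fragments in a library and so allow levels of different genes to be set side by side. A library held between 24143 and 24601 genes above 0 FPKM, and its read depth is unknown because the files hold no counts. Testing with limma on log2(FPKM + 1) was limited to genes averaging 1 FPKM or more (11981 genes, among them 9 of the 10), and a gene was called where its p, adjusted over all of them, was under 0.05. Fold changes on this scale understate those of low genes. Era+VK replicates 2 and 3 stood apart from the other libraries. A list of 10 erythroid markers summed to 238.9 and 231.8 FPKM in them, with 6 of 10 genes at a mean of at least 1 FPKM, whereas the Era libraries summed to 0.07 to 0.21 FPKM and Era+VK replicate 1 to 0.14 FPKM. The part of those transcripts in the results was not tested. Differences with Era+VK replicate 1 as the only VK1 library are given for the genes that passed and for some others. In bulk RNA, fewer cells of a type and less RNA per cell cannot be told apart.

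The RPE label was checked against 14 RPE markers, of which TTR was not matched. OTX2, an RPE determination factor, was at 27.5 to 31.4 FPKM and MITF at 15.5 to 18.6 FPKM over the 6 libraries, but RPE65, the visual cycle isomerase, was at 0 in Era and at most 0.02 FPKM in Era+VK. Only 5 of the 13 matched markers reached a mean of 1 FPKM, and the whole list summed to 48.3 to 107 FPKM in Era against 54.6 to 91.9 FPKM in Era+VK. That range followed BEST1, a chloride channel gene, which ran from 0.65 to 57.0 FPKM within Era and from 0.60 to 36.5 FPKM within Era+VK. Mesenchymal and epithelial markers were mixed in both groups, but not evenly. Of the matched genes of lists used below, 19 of 22 contractile and mesenchymal ones averaged at least 1 FPKM. Of the epithelial ones, 7 of 16 did. VIM, the intermediate filament vimentin, was at 750 to 952 FPKM, while CDH1 (E-cadherin) stayed at or below 0.04 FPKM and EPCAM at or below 0.14 FPKM. The epithelial keratins KRT8 (171 to 209 FPKM) and KRT18 (222 to 246 FPKM) and the desmosomal gene DSP (14.4 to 16.9 FPKM) were well detected. The matched mesenchymal genes that averaged under 1 FPKM were POSTN (periostin), THY1 and CNN1, a smooth muscle calponin. POSTN was listed at 0, THY1 at no more than 0.02 FPKM and CNN1 at no more than 0.17 FPKM. Of 5 endothelial markers none reached 1 FPKM on average, and the list summed to 0.63 to 1.07 FPKM in Era against 0.69 to 0.96 FPKM in Era+VK. Of 6 fibroblast markers COL1A2 was not matched, DCN and LUM were at 0 in every library, and only PDPN was above 1 FPKM, with list sums of 11.7 to 12.55 FPKM in Era against 13.3 to 13.6 FPKM in Era+VK.

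The 10 genes covered a wide range of levels, and their order was largely the same in both groups. In Era, TGFBI was the most abundant at a mean of 338 FPKM, the 53rd highest of all genes, followed by TGFB2 (47.7 FPKM), CDH2 (44.6 FPKM), FN1 (38.5 FPKM), TGFB1 (20.0 FPKM), ACTA2 (12.8 FPKM), TAGLN (10.9 FPKM), SMAD7 (8.37 FPKM), ZEB1 (2.59 FPKM) and SNAI2 (0.037 FPKM). Neighbours in this order did not overlap between libraries, except ACTA2 and TAGLN. In Era+VK, 2 positions were exchanged: CDH2 (44.1 FPKM) stood above TGFB2 (38.3 FPKM), and SMAD7 (9.53 FPKM) above TAGLN (7.11 FPKM). No neighbours overlapped there, ACTA2 (13.05 FPKM) and SMAD7 included.

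**Figure D1:**
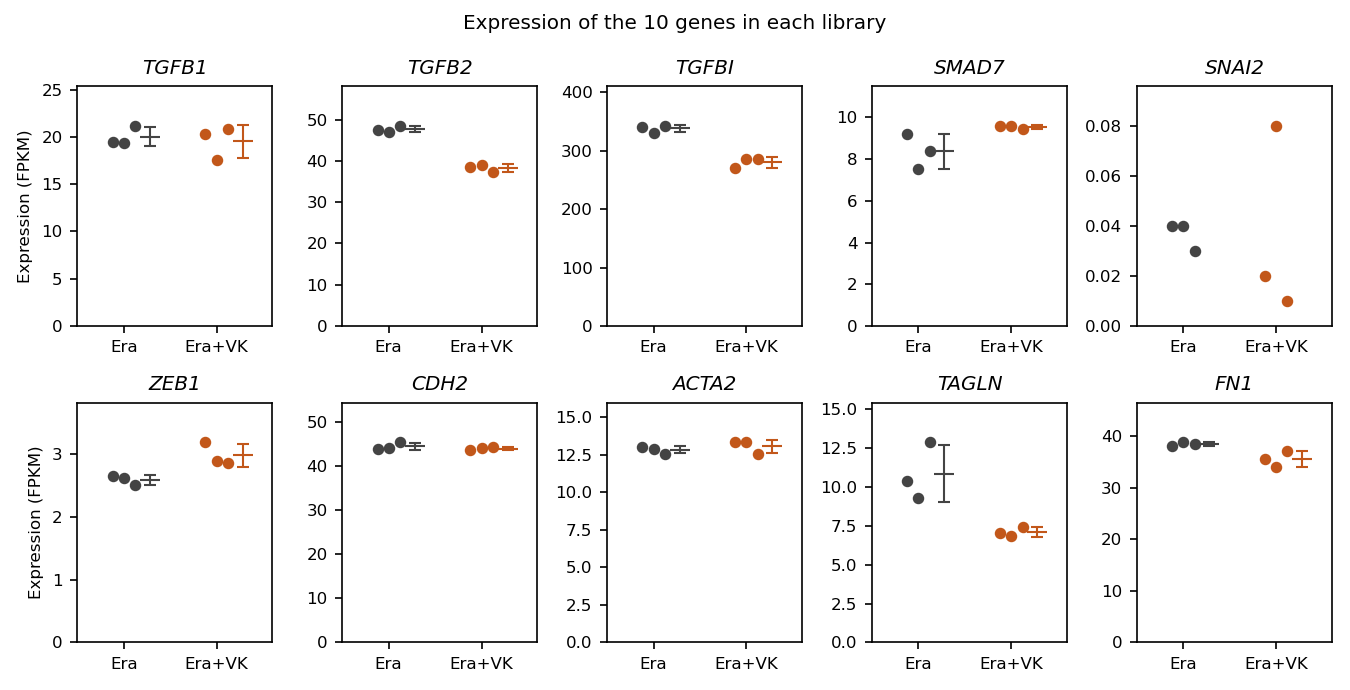
Expression in FPKM (y axis, from 0, a separate scale for each gene) of the 10 genes in each library of Era (grey) and Era+VK (orange). Points are libraries in replicate order, and the bar beside them is the mean ± SD (n = 3, not drawn for SNAI2, whose values are at most 0.08 FPKM). TGFB2, TGFBI, TAGLN and FN1 lie lower in every Era+VK library than in every Era library, SMAD7 and ZEB1 lie higher, and the groups overlap for TGFB1, CDH2, ACTA2 and SNAI2.

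Of the 9 genes tested, 1 passed: TGFB2 fell after VK1 pretreatment. In all, 0.618% of the genes tested were called in either direction and 0.484% lower in Era+VK. The groups did not overlap for 6 of the 9 genes, 4 of them lower in Era+VK (TGFB2, TGFBI, TAGLN and FN1) and 2 higher (SMAD7 and ZEB1). Among all genes tested, 22.1% did not overlap, 7.04% lower and 15.1% higher. For single genes an exact permutation test of 3 libraries against 3 cannot go below p = 0.1 (two-sided), the value it gave for each of these 6 genes. The median log2 fold change of the 9 genes was -0.03, and that of all genes tested was 0.03.

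**Figure D2:**
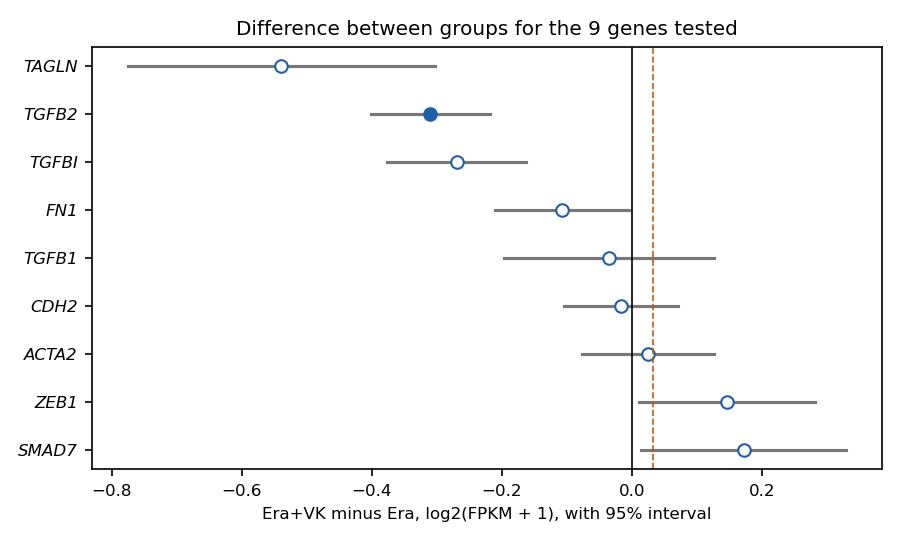
Difference between Era+VK and Era on the log2(FPKM + 1) scale (x axis) for the 9 genes tested, with the 95% interval from limma (grey lines). The filled point is the gene with an adjusted p under 0.05 (TGFB2, -0.31), open points did not pass, and the dashed line marks the median of all genes tested (0.03); the intervals of TGFB1, CDH2 and ACTA2 span 0.

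TGFB2 was the most abundant TGF-beta ligand in both groups. TGFB2, which encodes TGF-beta 2 (ENSG00000092969, chromosome 1 of GRCh38, 218346235 to 218444619 in GENCODE 29), was at 47.6, 47.0 and 48.45 FPKM in Era and at 38.6, 39.0 and 37.3 FPKM in Era+VK. The lowest Era library lay well above the highest Era+VK library, with little spread inside either group. Its mean went from 47.7 ± 0.734 to 38.3 ± 0.882 FPKM (SD, n = 3 each), a change of -19.7%. The log2 fold change was -0.31 (standard error 0.04, 95% interval -0.40 to -0.22, adjusted p = 0.0213 in limma), and its p was the 35th lowest of 11981. Against the mean of Era it was -0.30, -0.28 and -0.35 in Era+VK replicates 1, 2 and 3, so the library with the low erythroid sum lay between the other two. The direction held under all 14 processing alternatives (log2 fold change -0.32 to -0.29), but the call did not. The adjusted p in limma was 0.119, 0.121 and 0.118 without Era replicate 1, 2 or 3, 0.0502, 0.0371 and 0.0771 without Era+VK replicate 1, 2 or 3, and 0.0966 with Era+VK replicate 1 as the only VK1 library. It was 0.0740 with no filter on low genes, 0.0505 without the variance trend and 0.0807 with the replicate number as a block. TGFB2 shares 1371 exon bases with TGFB2-OT1, annotated as an overlapping transcript at its 3′ end, which was listed at 0.02 to 0.83 FPKM. Of 996 evenly spaced stretches of 75 bases of the longest TGFB2 transcript, 26.1% occur in it, and how reads were split between both was not tested.

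TGFB1, the ligand TGF-beta 1, was at 19.5, 19.4 and 21.2 FPKM in Era and 20.3, 17.6 and 20.8 FPKM in Era+VK. The groups overlapped, and the lowest value was that of Era+VK replicate 2. The log2 fold change was -0.03 (95% interval -0.20 to 0.13, adjusted p = 0.851 in limma), and its sign turned without Era replicate 3 (0.0043), without Era+VK replicate 2 (0.037) and with Era+VK replicate 1 alone (0.019). TGFB1 shares 215 exon bases with HNRNPUL1 on the opposite strand (63.1 to 68.05 FPKM), and the sources used here do not say whether counting used strand. TGFB3, the remaining isoform, was at 0.64 to 0.70 FPKM in Era against 0.72 to 0.85 FPKM in Era+VK, below the minimum for testing. Within each library, where the library scale cancels, TGFB2 was 2.38 ± 0.0835 times TGFB1 in Era and 1.97 ± 0.221 times in Era+VK (SD, n = 3 each). The ratio ran from 2.29 to 2.44 in Era and from 1.79 to 2.22 in Era+VK, with no overlap. TGFB2 made up 69.75% ± 0.706 of the summed FPKM of the TGFB isoforms in Era and 65.3% ± 2.44 in Era+VK (SD, n = 3 each). Of the 4 such measures compared, each gave an exact permutation p of 0.1 (two-sided, Benjamini-Hochberg adjusted p = 0.1), the smallest that 3 against 3 allow.

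TGFBI, a secreted matrix protein named for its induction by TGF-beta and an abundant transcript of these cells, had the next lowest p. It was at 341, 331 and 342 FPKM in Era and 270, 286 and 285 FPKM in Era+VK. No Era+VK library reached the lowest Era library. The mean was 338 ± 6.13 FPKM without and 280 ± 9.24 FPKM with VK1 (SD, n = 3 per group), and the log2 fold change was -0.27 (standard error 0.05, 95% interval -0.38 to -0.16). With an adjusted p of 0.0553 in limma it did not pass. It passed with a minimum of 1 FPKM in every library (adjusted p = 0.0467 in limma) and after rescaling without mitochondrially encoded genes (adjusted p = 0.0392 in limma), and over the 14 alternatives the adjusted p ran from 0.0392 to 0.239. Quantile normalization gave the smallest difference (-0.21) and Era+VK replicate 1 alone the largest (-0.32). TGFBI lies on chromosome 5 of GRCh38, 136028895 to 136063818 in GENCODE 29 (ENSG00000120708).

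The sequences before the starts of TGFB2, TGFBI and FN1 are printed because these are the matched genes that lay lower in every Era+VK library. RefSeq promoter entries on GRCh38.p14 were matched for 8 of the 10 genes; TAGLN and SNAI2 were not matched. Each window holds the 250 bases before the annotated start, 5′ to 3′ in the direction of transcription, and capitals mark any match, on either strand, to the motifs searched. These were TGACGTCA, the cAMP response element (CRE), and its core TGACG. The others were CAGAC, a SMAD box, the E-box CACCTG that SNAI and ZEB factors bind, GGAATG, a TEAD motif, and the CArG box of serum response factor. The TGFB2 window is chr1:218345086-218345335 and the TGFBI window chr5:136028738-136028987, both on the plus strand, and the FN1 window is chr2:215436069-215436318 on the minus strand.
TGFB2: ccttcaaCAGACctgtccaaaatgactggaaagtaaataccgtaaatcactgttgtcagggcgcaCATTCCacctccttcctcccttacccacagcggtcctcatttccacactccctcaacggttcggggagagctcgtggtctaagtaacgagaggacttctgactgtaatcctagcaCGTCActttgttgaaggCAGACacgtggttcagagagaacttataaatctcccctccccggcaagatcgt
TGFBI: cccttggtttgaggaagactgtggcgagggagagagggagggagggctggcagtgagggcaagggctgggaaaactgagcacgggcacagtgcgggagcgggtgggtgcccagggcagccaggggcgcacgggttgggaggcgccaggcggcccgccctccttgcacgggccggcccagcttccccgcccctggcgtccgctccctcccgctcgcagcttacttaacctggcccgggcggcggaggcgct
FN1: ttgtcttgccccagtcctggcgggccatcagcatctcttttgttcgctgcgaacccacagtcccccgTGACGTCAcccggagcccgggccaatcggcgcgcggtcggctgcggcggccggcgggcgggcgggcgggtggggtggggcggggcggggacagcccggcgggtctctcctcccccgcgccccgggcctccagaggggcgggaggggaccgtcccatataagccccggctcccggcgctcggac
The TGFB2 window holds CAGAC at -243 and -53 from the start (first base), TGACG on the minus strand at -70 and GGAATG on the minus strand at -185. The FN1 window holds the full TGACGTCA at -183. No listed motif occurs in the TGFBI window, which says only that these letters are not in it. Of 35116 windows of this length, 38% hold CAGAC, 21.2% TGACG, 17.5% CACCTG, 11.9% GGAATG, 1.65% TGACGTCA and 1.16% a CArG box. The motifs of the TGFB2 window are thus common ones, whereas that of the FN1 window is not. The windows also differ in base composition, with 50.4% G and C for TGFB2, 72.8% for TGFBI and 76.4% for FN1 against a median of 58%. RefSeq starts TGFB2 at 218345336, upstream of the GENCODE 29 start given above. For TGFBI (136028988) and FN1 (215436068) the RefSeq start lies downstream of the GENCODE 29 start (136028895 and 215436172). Part of each of these windows therefore lies inside the GENCODE 29 gene. TGACGTCA contains TGACG, and a match is a description of letters, not of binding.

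Among the smooth muscle, adhesion and matrix genes of the 10, none passed the test. TAGLN, the actin-binding protein transgelin (ENSG00000149591, chromosome 11, 117199321 to 117204782 in GENCODE 29), was at 10.4, 9.32 and 12.9 FPKM in Era and 7.04, 6.83 and 7.45 FPKM in Era+VK. Its groups did not overlap, and the Era libraries were the more scattered (coefficient of variation 16.7% against 4.44%). The mean was 10.9 ± 1.81 FPKM without and 7.11 ± 0.315 FPKM with VK1 (SD, n = 3 per group). Its log2 fold change of -0.54 (standard error 0.10, 95% interval -0.77 to -0.30) was the largest in size of the 9 genes, but it did not pass (adjusted p = 0.0715 in limma). It passed in 1 of the 14 alternatives, a minimum of 1 FPKM in every library (adjusted p = 0.0470 in limma), and without Era replicate 3, the highest library, the difference was -0.42 (adjusted p = 0.119 in limma). With Era+VK replicate 1 as the only VK1 library, its log2 fold change was -0.55. TAGLN shares 446 exon bases with PCSK7 on the opposite strand (2.21 to 2.64 FPKM).

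ACTA2, smooth muscle actin and the classic myofibroblast marker, was at 13.0, 12.9 and 12.55 FPKM in Era and 13.3, 13.3 and 12.6 FPKM in Era+VK. The groups overlapped, and its log2 fold change was 0.03 (95% interval -0.08 to 0.13, adjusted p = 0.823 in limma), with the sign turned under quantile normalization (-0.0058). Shared actin sequence was looked for: none of 255 evenly spaced stretches of 75 bases of its longest transcript occurred in another gene's transcripts. That search did not read the opposite strand. There ACTA2 shares 380 exon bases with FAS (1.53 to 1.8 FPKM) and 516 with ACTA2-AS1 (0.03 to 0.09 FPKM). Within each library TAGLN was 0.850 ± 0.157 times ACTA2 in Era and 0.545 ± 0.0422 times in Era+VK (SD, n = 3 each), with ranges of 0.723 to 1.02 and 0.514 to 0.593.

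FN1, fibronectin, was at 38.1, 38.8 and 38.45 FPKM in Era and 35.7, 34.1 and 37.2 FPKM in Era+VK. The groups were apart but close, and the log2 fold change was -0.11 (95% interval -0.21 to -0.00374, adjusted p = 0.304 in limma). The ratio of TGFBI to FN1 was 8.79 ± 0.231 in Era and 7.88 ± 0.454 in Era+VK (SD, n = 3 each), ranging from 8.53 to 8.95 and from 7.56 to 8.40. CDH2, N-cadherin, the cadherin that replaces E-cadherin in mesenchymal cells, had the smallest difference of the 9 genes, with 44.0, 44.2 and 45.4 FPKM in Era and 43.8, 44.1 and 44.3 FPKM in Era+VK. Its log2 fold change was -0.02 with a 95% interval of -0.10 to 0.07 (adjusted p = 0.873 in limma), an interval that holds no change as large as the fall of TGFB2. CDH2 shares 136 exon bases with AC110015.1 on the opposite strand (at most 0.25 FPKM).

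SMAD7, the inhibitory SMAD induced by TGF-beta and BMP signals, was at 9.21, 7.52 and 8.39 FPKM in Era and 9.59, 9.58 and 9.43 FPKM in Era+VK. It was higher in all Era+VK libraries, by a log2 difference of 0.17 (95% interval 0.01 to 0.33, adjusted p = 0.285 in limma), and the Era libraries were spread by 10.1% against 0.940% in Era+VK (coefficient of variation). ZEB1, a zinc finger repressor of epithelial genes, was at 2.65, 2.61 and 2.50 FPKM in Era and 3.18, 2.88 and 2.86 FPKM in Era+VK. The groups did not overlap and the log2 fold change was 0.15 (95% interval 0.01 to 0.28, adjusted p = 0.288 in limma). ZEB1 shares 366 exon bases with ZEB1-AS1 on the opposite strand (0.83 to 1.05 FPKM). Neither gene passed under any of the 14 alternatives. SNAI2, the repressor Slug, was at 0.04, 0.04 and 0.03 FPKM in Era and 0.02, 0.08 and 0.01 FPKM in Era+VK. These values are close to the rounding step of the files, and SNAI2 was not tested.

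The other genes of the pathway were taken from 7 lists by role, and beside the 9 genes above 80 further list genes were tested. Of these 80, 1 passed (1.25%, beside 0.618% of all genes tested). This was IGFBP3, which encodes an IGF-binding protein of the secretome and is induced by TGF-beta, and it fell. It was at 48.0, 44.9 and 55.3 FPKM in Era and 35.0, 34.0 and 33.7 FPKM in Era+VK, with no overlap. The log2 fold change was -0.51 (standard error 0.07, adjusted p = 0.0331 in limma). It passed in 4 of the 14 alternatives and in none of the fits without 1 library (adjusted p from 0.0629 to 0.127 in limma). With Era+VK replicate 1 as the only VK1 library, its log2 fold change was -0.48. The median log2 fold change of the 80 genes was 0.0086, against 0.03 for all genes tested.

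Among ligands and the genes that keep them latent or activate them, 15 of 18 were tested, 7 higher and 8 lower (median -0.0067), and TGFB2 passed. GDF11, an activin-type ligand, had the highest value of this list, with means of 2.01 FPKM without and 2.73 FPKM with VK1 (log2 fold change 0.31, limma adjusted p = 0.0754). Of the receptors and co-receptors 9 of 12 were tested and 8 had a higher mean in Era+VK (median 0.12). All genes tested also leaned upward, with a median of 0.03 (0.0048 after quantile normalization), and 15.1% lay higher without overlap against 7.04% lower. None of them passed in limma, with 2 of 9 at an unadjusted p under 0.05, which held for 15.8% of all genes tested. Their range ran from ACVR1B, an activin receptor (-0.09), to BMPR2, a BMP receptor (0.14). TGFBR1 and TGFBR2, which carry the TGF-beta signal and were named here after their values were seen, had log2 fold changes of 0.14 each (adjusted p = 0.321 and 0.369 in limma). Of the SMADs and their regulators 17 of 18 were tested, with 14 higher (median 0.05, beside 0.03 for all genes tested). They ran from STRAP at -0.09 to SMAD9, a BMP-type SMAD, at 0.34. None of these passed in limma, and 4 of 17 had an unadjusted p under 0.05 (15.8% of all genes).

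Among TGF-beta-responsive genes 20 of 24 were tested, with 8 higher and 12 lower (median -0.04). IGFBP3 passed and had the lowest value, and 8 of the 20 had an unadjusted p under 0.05 (15.8% of all genes). The highest was ID3, an inhibitor of differentiation best known as a BMP target, at 93.3, 96.9 and 86.25 FPKM in Era and 117, 141 and 110 FPKM in Era+VK (log2 fold change 0.41, limma adjusted p = 0.113). The groups did not overlap for 7 of the 20 genes, 4 lower and 3 higher, beside 7.04% lower and 15.1% higher among all genes tested. TGFBI and SMAD7, already counted above, are among the 7.

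Of the transition factors 6 of 12 were tested, because SNAI1, SNAI2, TWIST2, PRRX1, TCF4 and FOXC2 averaged under 1 FPKM. ZEB1 was the highest and ETS1, an ETS family activator, the lowest (-0.18, adjusted p = 0.224 in limma), and none passed in limma, with 2 of 6 at an unadjusted p under 0.05 (15.8% of all genes). Contractile and mesenchymal genes counted 19 tested of 23, 7 higher and 12 lower (median -0.07), from TAGLN (-0.54) to PDGFRB, a PDGF receptor (0.38, adjusted p = 0.122 in limma). None passed in limma. Of the 19, 8 had an unadjusted p under 0.05 (15.8% of all genes). Without overlap 7 were lower (7.04% of all genes) and 2 higher (15.1% of all genes). TAGLN and FN1, already counted above, are among the 7. VIM, named after its values were seen, was at 942, 952 and 911 FPKM in Era and 771, 792 and 750 FPKM in Era+VK (log2 fold change -0.28, limma adjusted p = 0.0644). Leaving out 1 library gave 0.043 (without Era+VK replicate 2) to 0.260, and quantile normalization reduced the log2 difference to -0.08. The log2 difference was -0.28 with Era+VK replicate 1 as the only VK1 library. Epithelial genes counted 7 tested of 19, 4 higher and 3 lower (median 0.0018), and none passed in limma, with 2 of 7 at an unadjusted p under 0.05 (15.8% of all genes). The tight junction gene CLDN1 was the lowest, with means of 3.47 FPKM without and 2.04 FPKM with VK1 (log2 fold change -0.56, limma adjusted p = 0.0553), and KRT8 the highest (0.15). For CLDN1, leaving out 1 library gave an adjusted p in limma from 0.0449 (without Era+VK replicate 3) to 0.221. Its log2 fold change was -0.67 with Era+VK replicate 1 as the only VK1 library.

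**Figure D3:**
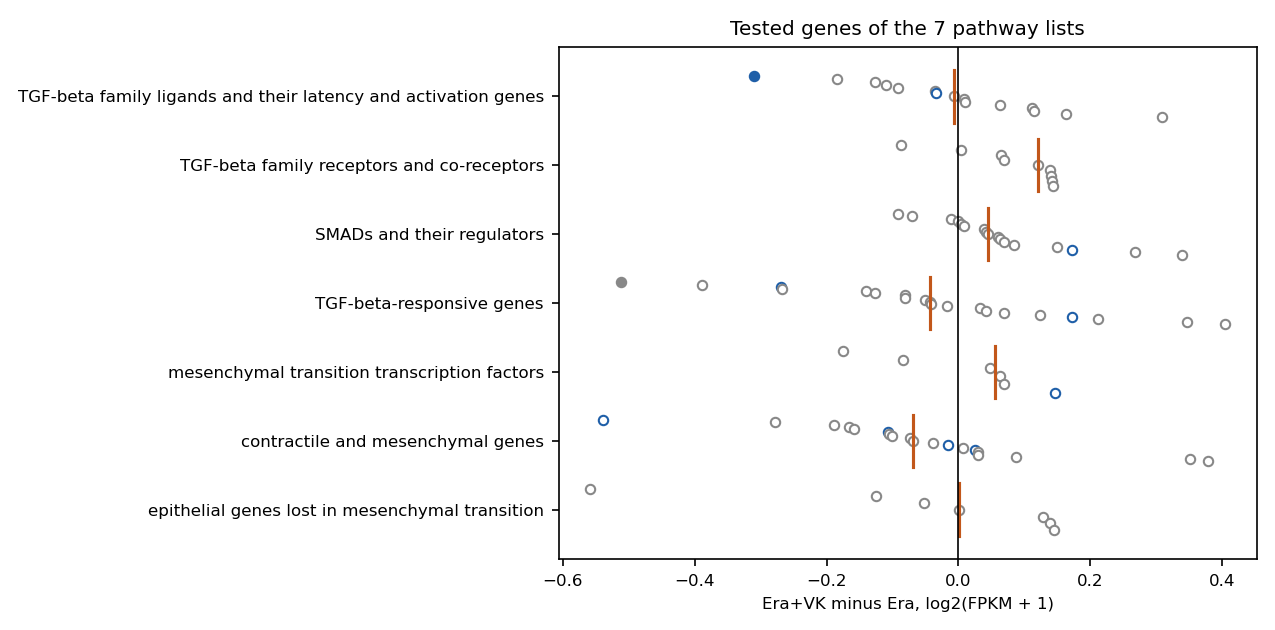
Difference between Era+VK and Era on the log2(FPKM + 1) scale (x axis) for the tested genes of 7 pathway lists (rows). Blue points are among the 10 genes, grey points are other list genes, filled points have an adjusted p under 0.05 (TGFB2 and IGFBP3) and the orange line is the list median; some genes stand in more than 1 list, and most list medians lie close to 0, that of the receptors at 0.12.

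The genes whose pattern over the 6 libraries was most like that of TGFB2 were HKDC1 (a hexokinase family member, Pearson r 0.991 of log2(FPKM + 1)), SLC22A3 (an organic cation transporter, r 0.989) and SNTB1 (a syntrophin, r 0.9875). In all, 86 genes had r above 0.95 with TGFB2. These libraries fall into 2 groups that TGFB2 separates, so r mostly follows the group difference. HKDC1 was at 10.3, 9.89 and 10.7 FPKM in Era and 7.10, 7.33 and 7.24 FPKM in Era+VK.

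**Figure D4:**
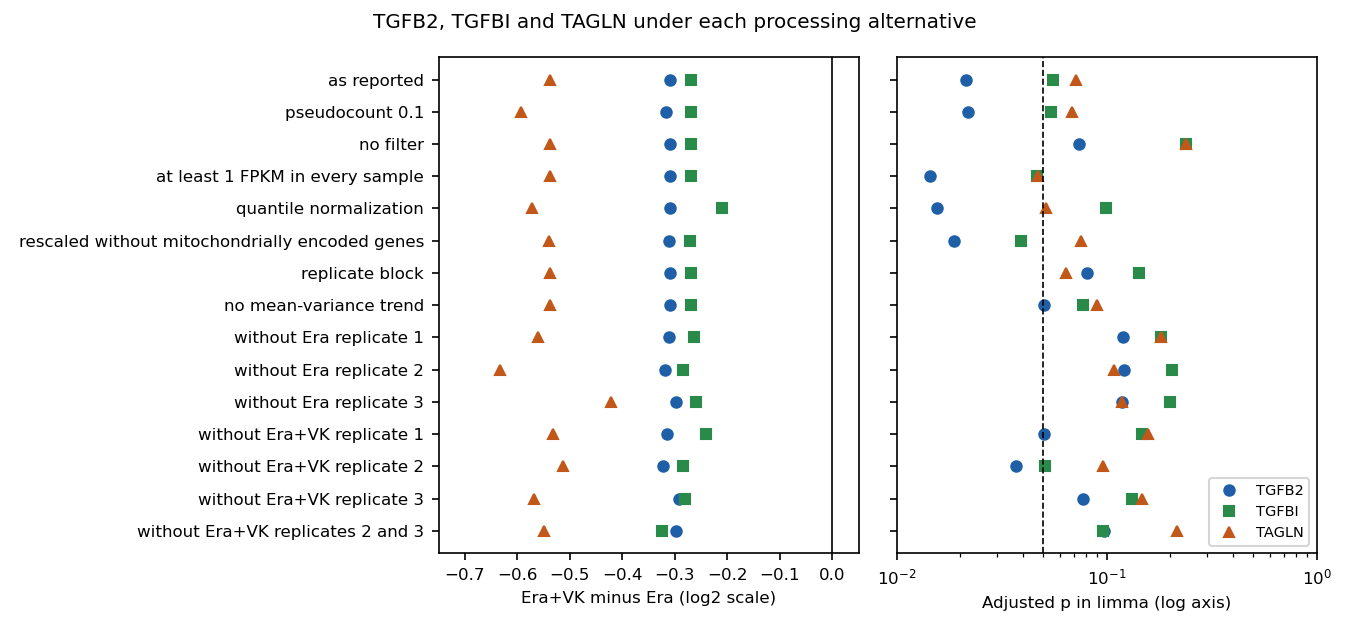
Difference on the log2(FPKM + 1) scale (left) and limma adjusted p (right, log axis, dashed line at 0.05) of TGFB2, TGFBI and TAGLN as reported and under 14 processing alternatives (rows). The differences stay below 0 in every row, whereas TGFB2 is past the threshold in 5 of the alternatives, TGFBI in 2 and TAGLN in 1.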

How the data were processed

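RNA-seq of ARPE-19 cells gave 6 libraries, 3 per group. The authors deposited FPKM values with 2 decimals for 33496 genes per library. The submitters' processing notes name cutadapt, HISAT2 and StringTie 2.1.6. They give the genome build mm10, although all 33496 identifiers are human Ensembl genes; the annotation release and strand setting are not given in the sources used here. FPKM carry no depth, and the low values of 2772 to 2894 single-exon genes per library did not sit on multiples of 1 read, so no count test or counting interval was used.

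For genes averaging 1 FPKM or more, limma 3.58.1 with a variance trend, run under R 4.3.3, was fitted to log2(FPKM + 1), Era+VK against Era, with Benjamini-Hochberg adjustment. The fit was tried on simulated data with independent libraries and differences larger than that of TGFB2. That trial does not bear on the TGFB2 call. Positions are from GENCODE 29 on GRCh38 by gene identifier. The 10 genes, lists and tests were chosen with earlier results of these data known. Named beyond the 10 are list genes that passed and the highest and lowest tested gene of each list. The 3 genes most correlated with the member of lowest p are named as well. Of the markers with a mean of at least 1 FPKM, only OTX2, MITF, BEST1 and PDPN are named. TGFBR1, TGFBR2, VIM, KRT18 and DSP were chosen with their values in view. So were markers at or near 0, overlapping genes and the further genes of the closing observations. The values of 1 further list gene are not reported here.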

Additional observations from a re-analysis of the deposited data

How the results depend on the processing

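Counts are of genes that limma called at 0.05. The alternatives were a pseudocount of 0.1, no filter, 1 FPKM in every library, quantile normalization, rescaling without mitochondrially encoded genes, the replicate block, no variance trend, each library left out, and Era+VK replicate 1 as the only VK1 library. The count among the 10 genes, 1 as reported, was 0 with no filter, 3 with 1 FPKM in every library (TGFB2, TGFBI and TAGLN), 2 after rescaling, 0 without the trend and 0 with Era+VK replicate 1 alone; leaving out 1 library gave 0 to 1, with 1 only without Era+VK replicate 2. Over all genes, 74 as reported, it was 1 with no filter, 122 with 1 FPKM in every library, 112 after quantile normalization and 44 without the trend; leaving out 1 library gave 2 to 71, with 3, 2 and 5 without Era replicate 1, 2 or 3 and 42 without Era+VK replicate 3. Among the further list genes, 1 as reported, it was 0 with no filter, 2 with 1 FPKM in every library, 3 after quantile normalization, 2 after rescaling, 0 without the trend and 0 with Era+VK replicate 1 alone; leaving out 1 library gave 0 to 1. With no filter, 31325 genes were tested in place of 11981. The log2 fold change of TGFB1 ran from -0.079 to 0.037 when 1 library was left out. Its sign turned without Era replicate 3 (0.0043), without Era+VK replicate 2 (0.037) and with Era+VK replicate 1 alone (0.019), and that of ACTA2 turned after quantile normalization (-0.0058). The cause of these changes was not tested beyond the number of genes and libraries in each fit.

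With the replicate number as a block, the counts were 0 of the 10 genes, 42 of all genes and 0 of the further list genes. The numbers were not taken as pairs in the reported fit. Deviations of same-numbered libraries correlated by 0.071, 0.103 and 0.021, those of different-numbered ones by -0.114 to 0.040. Era replicates 1 and 2 correlated best with the Era+VK library of the same number, and Era replicate 3 with Era+VK replicate 1 (0.040). Values this small do not settle whether the numbers mark pairs. No counts are in the files, so what depth limits could not be given.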

Other observations

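Apart from SMAD9 and ID3, the list genes below were picked with their values in view, no grouping of them was tested, and none passed the threshold. Among all genes tested, 7.04% lay lower in every Era+VK library than in every Era library, and 15.1% lay higher. LOX, the collagen crosslinking oxidase, lay lower in every Era+VK library (124 to 103 FPKM, difference of -0.27 on the log2 scale, limma adjusted p = 0.103), as did THBS1, thrombospondin 1, which can activate latent TGF-beta (61.9 to 54.4 FPKM, -0.18, adjusted p = 0.139 in limma). Other matrix and matricellular genes of the TGF-beta-responsive list, CCN1, CCN2, LOXL2, COL4A1, COL5A1 and TIMP3, overlapped between the groups. ID2, an inhibitor of differentiation, lay higher in every Era+VK library (12.55 to 16.25 FPKM, difference of 0.35 on the log2 scale, limma adjusted p = 0.105), as did SMAD6, an inhibitory SMAD (9.09 to 11.2 FPKM, 0.27, adjusted p = 0.159 in limma), and SMAD9 (3.66 to 4.90 FPKM, 0.34, adjusted p = 0.0996 in limma). ID1, from the same family as ID2, overlapped (difference of 0.12 on the log2 scale, limma adjusted p = 0.652) and was -0.07 in Era+VK replicate 1 alone. With Era+VK replicate 1 as the only VK1 library, the log2 fold changes were -0.29 for LOX, -0.19 for THBS1, 0.45 for ID2, 0.41 for SMAD6, 0.40 for SMAD9 and 0.35 for ID3.

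CNN2, a calponin, and TPM1, a tropomyosin, which like TAGLN bind actin filaments, also lay lower without overlap (log2 fold change -0.19 and -0.16). So did 7.04% of all genes tested. TPM2 (115 FPKM in Era, -0.04), MYL9 (28.9 FPKM in Era, -0.10), CALD1 (-0.07) and TAGLN2 (-0.10) of the same list overlapped between the groups. All of these but TAGLN were named after their values were seen, and none passed in limma.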
